A study of Mus musculus with 12 samples.

Results

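The comparison described here set Neuro-2a cells transfected with a miR-155 inhibitor against the same cells transfected with a control small RNA. Its members were chosen by the labels alone: the inhibitor libraries numbered 1 to 4 and the control libraries numbered 1 to 4, with the number as a block, which made 8 of the 12 libraries of the series. Neuro-2a is a mouse neuroblastoma line of sympathetic type, labelled wild type, and its use as a model of neurons is limited by that origin. All 3 groups of the series (control, labelled miR-Con in the treatment field, miR-155 mimic and miR-155 inhibitor, 4 libraries each) received a transfection reagent, RNA Fit, in medium free of serum and antibiotics, had that medium exchanged for growth medium after 4 h, and were kept until day 2. The labels give no hypoxia or ischemia for any of these libraries. Separate cultures are not stated for the libraries of a group, so p-values measure only the spread between these samples, and that spread may be technical. Neither miR-155 itself nor the uptake of the inhibitor is measured by the values used here.

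A microRNA guides an Argonaute protein to messenger RNAs that carry a match to its seed, usually in the 3' untranslated region, and the bound Argonaute recruits TNRC6 proteins that lead to deadenylation and decay. An antisense inhibitor pairs with the microRNA and is meant to release those messages, so that transcripts with seed matches are the ones a blocked microRNA would leave higher. miR-155 is best known from immune cells, where Socs1, Inpp5d and Jarid2 are among its reported targets, and it has been studied in brain injury. The mature mouse strand from RefSeq (GRCm38.p6, chr16:84714143-84714165, + strand) is shown because the seed-site classes further on derive from it, with the seed, bases 2 to 8 from the 5′ end, in capitals.
mmu-miR-155-5p: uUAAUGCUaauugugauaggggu

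Depth was 60695388 to 74200532 counts in the 8 libraries, with 13669 to 13836 genes detected. Libraries of the same group differed by a chi-square per degree of freedom of 20.2 to 233 over genes, so none was a copy of another. The sympathetic neuroblastoma markers were present in all 8 libraries, with Hand2 at 558 to 714 CPM (counts scaled to the library's depth, with TMM factors), Phox2a at 244 to 392 CPM and Prph, which encodes the filament protein peripherin, at 1280 to 1527 CPM. Nefm and Nefl stayed under 0.2 CPM, and Th, the first enzyme of catecholamine synthesis, ran from 1.12 to 1.64 CPM. Markers of fibroblasts summed to 17.5 to 21.5 CPM in control and 14.7 to 20.3 CPM in inhibitor, those of glia to 30.9 to 33.3 and 27.4 to 35.8 CPM, and those of immune and endothelial cells to 6.23 to 9.22 and 6.11 to 9.92 CPM.

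Of 13014 genes tested, 0 passed an adjusted p of 0.05 in edgeR's quasi-likelihood test with the number as a block, and the smallest adjusted p was 0.9998. At an unadjusted p under 0.05 there were 161 genes, or 1.24% of those tested, with 73 higher in inhibitor (0.561%) and 88 lower (0.676%). Evenly spread p-values would place a share of 0.05 of the genes there, more than the share seen. The signs of the fitted differences divided into 5966 genes higher and 7048 lower, and the median log2 fold change was -0.01. limma with the same block called 0 genes on the log2(TPM + 1) scale, where 240 had an unadjusted p under 0.05 (1.84%), and 0 on the counts through voom, where 171 did (1.31%). DESeq2 with the block called 162 of the 15767 genes in the table (1.03%), 83 higher and 79 lower, and 393 had an unadjusted p under 0.05 (2.49%). None of the 162 had passed edgeR's filter on low counts, and 146 of them had counts in 1 of the 8 libraries, while 15 had counts in 2. The only DESeq2 call with counts in more libraries was Hsf5, a heat shock factor family gene known from the testis, with 9, 8, 11 and 15 counts in the 4 controls and 0 in each of the 4 inhibitor libraries. A count of 0 allows up to 3 counts, or 0.0439 to 0.0487 CPM in these inhibitor libraries, and covers counting error only. Restricted to the genes that edgeR tested, DESeq2 called 0, and 200 had an unadjusted p under 0.05.

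For most genes of middle or high level, the libraries bounded any difference between these groups of samples closely. The 95% interval of the log2 fold change, taken gene by gene with no adjustment for the number of genes, lay wholly inside a 1.5-fold change in either direction for 9147 of the 9217 genes above 10 CPM (99.2%). It lay inside a 2-fold change for 99.7% of them. The far end of the interval was at 1.16-fold for the median gene above 10 CPM and at 1.32-fold or less for 95% of them. Over all genes tested, 82.4% had an interval inside 1.5-fold. The median standard error above 10 CPM was 0.08 on the log2 scale, and the fitted log2 fold change itself stayed within 0.25 of 0 for 99.6% of the genes. The bound loosened as the level fell. Between 1 and 10 CPM, 68.9% of 2284 genes had an interval inside 1.5-fold, and under 1 CPM this was 0.397% of 1513 genes. A 2-fold change was excluded for 95.4% of the genes between 1 and 10 CPM and for 18.6% of those under 1 CPM. At the high end, 99.8% of the 1005 genes over 200 CPM had an interval inside 1.5-fold, and the far end was at 1.12-fold for the median gene. These intervals rest on the same spread between samples as the p-values, which may be technical. How they behave when single libraries carry trends with GC content and length was not tested. No gene is shown to be equal in both groups.

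**Figure D1:**
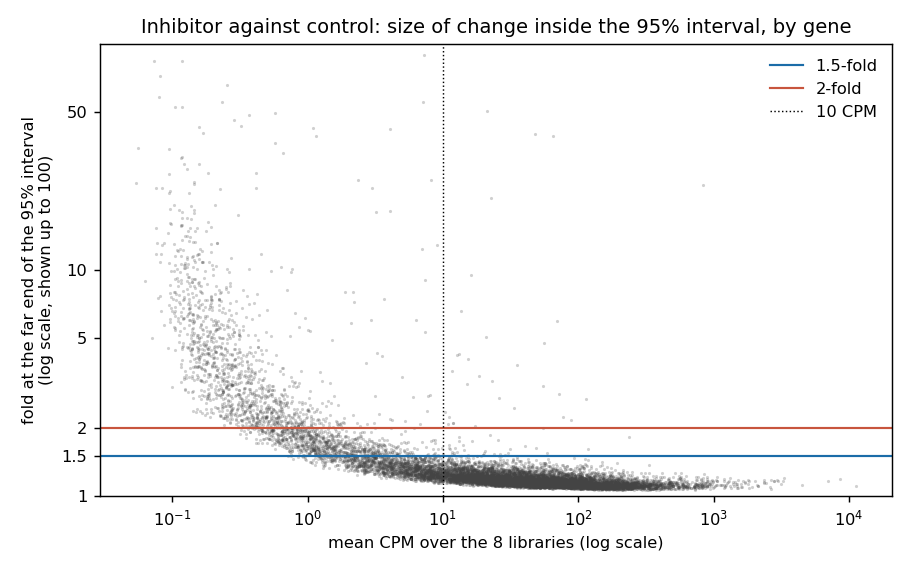
Each point is a gene, placed by its mean CPM over the 8 libraries (log scale) and by the fold change at the far end of its 95% interval (log scale, shown up to 100); horizontal lines stand at 1.5-fold and 2-fold and the dotted line at 10 CPM. To the right of 10 CPM, 99.2% of the genes lie under the 1.5-fold line, and 31 lie above the 2-fold line.

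The 70 genes above 10 CPM whose interval reached past 1.5-fold included genes that were read nearly all or nothing from library to library. Gemin4, a subunit of the SMN complex that assembles spliceosomal ribonucleoproteins, measured 0.425, 62.6, 0 and 0.385 CPM in control 1 to 4 and 56.5, 0.39, 50.2 and 0.251 CPM in inhibitor 1 to 4. High libraries thus occurred in both groups, and the interval ran from -5.39 to 5.66 on the log2 scale. Gemin4 overlaps Glod4 on the same strand in the reference annotation. Glod4 measured 100, 52.4, 110 and 111 CPM in control and 53.4, 108, 53.3 and 116 CPM in inhibitor, lower where Gemin4 was high. Raver1, an RNA-binding partner of the splicing regulator PTBP1, showed the same form, with 124, 136, 0 and 0.0296 CPM in control and 137, 0.0162, 120 and 0.454 CPM in inhibitor. It overlaps Gm38431 on the same strand. Gm38431 measured 47.2, 71.3, 177 and 169 CPM in control and 55.8, 174, 49.5 and 173 CPM in inhibitor, higher where Raver1 was near 0. How the authors' counting divided reads between overlapping genes is not given in the sources used here, and a trade of reads was not tested. For Rps18-ps6, a ribosomal protein pseudogene, the 8 libraries of this comparison ran from 761 to 948 CPM, and the wide interval (-4.57 to 4.49) came with 2 mimic libraries at 0. A fit to the 8 libraries alone put its log2 fold change at -0.03 with an interval from -0.20 to 0.13. Sp6, a zinc finger transcription factor, measured 15.2, 1.60, 18.8 and 19.6 CPM in control and 16.4, 15.1, 20.2 and 23.1 CPM in inhibitor, and of these 8 libraries only control 2 stood low. For Sp6, mimic 1 was at 0 as well. Its interval ran from -2.19 to 3.24 with all 12 libraries and from -0.64 to 2.19 with the 8 alone. Guca1a, a guanylate cyclase activator of photoreceptors, completed the 5 widest named genes, with a control range of 17.3 to 24.2 CPM and an inhibitor range of 17.4 to 23.2 CPM. Mimic 1 was at 0, and the interval ran from -2.29 to 2.34 with all 12 libraries and from -0.35 to 0.25 with the 8 alone.

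The sign of the difference seldom repeated over the 4 numbers. A ratio at a number sets the inhibitor and control libraries of that number against each other. Their deviations from the group means correlated by 0.881 at number 4, and by 0.135, -0.213 and 0.0357 at numbers 1 to 3. Ratios at numbers 1 to 3 thus rest on a matching that the values do not bear out. Among the 9217 genes above 10 CPM, 267 were higher in inhibitor at all 4 numbers (2.90%) and 249 were lower at all 4 (2.70%), which is 5.60% with a single sign. At 2 of the 4 numbers, 4638 genes were higher (50.3%), 2270 were higher at 1 number (24.6%) and 1793 at 3 numbers (19.5%). Groups whose 4 libraries did not overlap were seen for 84 of all 13014 genes tested (0.645%) and for 30 of those above 10 CPM (0.325%). In a check on libraries that had no part in choosing the genes, the 100 genes of highest mean ratio over 3 numbers kept that sign at the number left out for 22, 23, 52 and 38 genes, with numbers 1 to 4 left out in turn. For the 100 genes of lowest mean ratio the counts were 40, 7, 53 and 33. Of all 9217 genes, 48.5%, 46.6%, 49.7% and 50.4% were higher in inhibitor at numbers 1 to 4. With number 2 left out of the choice, the 100 lowest genes had a mean log2 ratio of -0.40 at the 3 numbers that chose them and a median of 0.63 at number 2.

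**Figure D2:**
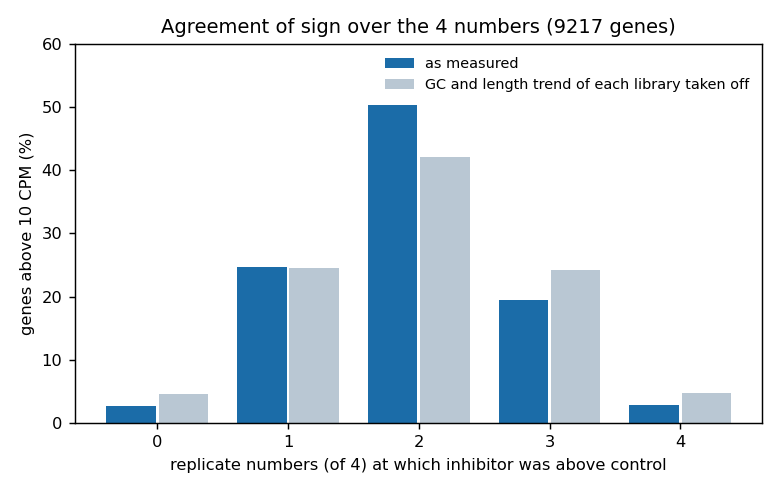
Bars give the percentage of the 9217 genes above 10 CPM that were higher in inhibitor at 0, 1, 2, 3 or 4 of the 4 numbers, as measured (dark) and after the trend of each library with GC content and length was taken off (light). The middle class is the tallest at 50.3% as measured and 42.1% after the trend was taken off, and the outer classes are 2.70% and 2.90% as measured.

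Ratios at the 4 numbers differed in width and in kind. The median absolute deviation of the log2 ratio was 0.23 at number 1, 0.28 at number 2, 0.09 at number 3 and 0.12 at number 4, over the genes above 10 CPM. Ratios at numbers 1 and 2 ran in opposite directions, with Spearman's rho of -0.65 across genes and 23.2% of genes sharing a sign. Numbers 2 and 4 were likewise opposed (rho -0.58, 26.5% sharing a sign), while numbers 1 and 4 ran together (rho 0.54, 71.5%). Number 3 was related less to the others, with rho of -0.19 to number 1, 0.20 to number 2 and -0.11 to number 4. These are descriptions across genes, which are not independent replicates. GC content and exon length moved with the same pattern. At number 2 the quartile of genes of lowest GC content (median 42.5%) had a median log2 ratio of 0.30 and the quartile of highest GC content (median 57.4%) one of -0.21. At number 1 the same groups had -0.19 and 0.13, and at number 4 -0.11 and 0.06. By length, the shortest quartile (median 1691 bases) and the longest (median 6549 bases) had -0.16 and 0.18 at number 2, and 0.12 and -0.18 at number 1. A smooth trend in GC content and length took up 47.8% of the variance of control 2 about the mean of the libraries, 19% for inhibitor 1, 18.2% for control 1, 16.6% for control 4 and 3.50% to 5.95% for the other 4. After each library's trend was taken off, 850 genes had a single sign (9.22%), and a fit with these trends as offsets called 0 genes, with 338 at an unadjusted p under 0.05. Both settings were chosen after seeing the data.

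**Figure D3:**
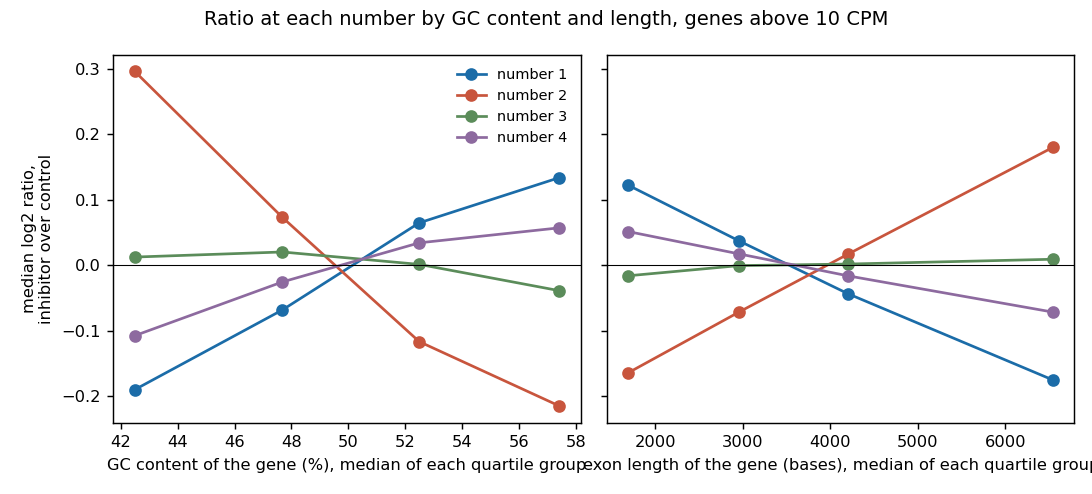
Median log2 ratio of inhibitor over control at each number, for the quartile groups of the genes above 10 CPM by GC content in percent (left) and by exon length in bases (right). Number 2 falls from 0.30 to -0.21 with GC content, numbers 1 and 4 rise, and number 3 stays between -0.04 and 0.02.

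The library that moved the counts the most was control 2. Without it, 1335 genes had an unadjusted p under 0.05 (303 higher, 1032 lower) and 0 were called, with a smallest adjusted p of 0.18. Their median GC content was 53.9% for those higher and 43.0% for those lower. Without number 2 in all groups, 1122 genes reached that level (239 higher, 883 lower), 77 of them among the 161. Without inhibitor 2 the count was 179. Without control 4, 1 gene was called, Gm20431, read 3231 times in control 1, 621 times in inhibitor 4 and not at all in 6 of the 8 libraries.

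The genes named next are the 10 in each direction with the smallest unadjusted p among those with a mean of at least 5 CPM, a single sign at the 4 numbers and an approved symbol. Their small p and single sign are how they were selected, all had an adjusted p of 1.00 (edgeR, Benjamini-Hochberg), and their values are a description. Several overlap another gene in the reference annotation, and strand was not given for the counting: Cox11, Pfkfb1, Nme7, Snrpf, Angptl6, Polg, Parp9 and Cdk10 overlap a gene on the opposite strand, Ctla2b and Pcdhgb1 one on the same strand, and Rnf26 both kinds. In mimic against the same control libraries, all 10 genes in each direction had the same sign as in inhibitor. Those log2 fold changes ran from 0.01 (Cox11) to 0.37 (Tmem251) for the higher genes. For the lower genes they ran from -0.36 (Rnf26) to -0.03 (Parp9). Mimic and inhibitor were set against the same control libraries, which took part in choosing these genes. A shared sign is thus no separate evidence.

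Among genes of mitochondria and energy use, Cox11, a copper chaperone needed to assemble cytochrome c oxidase, measured 8.10, 8.30, 9.09 and 7.30 CPM in control 1 to 4 and 11.3, 9.73, 11.5 and 8.73 CPM in inhibitor 1 to 4. Inhibitor libraries 1 to 3 lay above every control, and inhibitor 4 lay within the control range. The log2 fold change was 0.33 ± 0.09 (SE), with an interval from 0.13 to 0.53 (edgeR, unadjusted p = 0.00453), and the mimic libraries measured 8.30 ± 1.29 CPM (SD, n = 4). Pfkfb1, which makes and removes the glycolytic activator fructose 2,6-bisphosphate, had 5.54, 5.48, 5.45 and 4.77 CPM in control and 6.37, 6.66, 6.95 and 5.72 CPM in inhibitor. Its groups did not overlap, and the log2 fold change was 0.27. Polg, the catalytic subunit of the mitochondrial DNA polymerase, lay on the other side, with 86.56, 100.05, 87.7 and 89.2 CPM in control and 78.7, 85.4, 80.2 and 86.43 CPM in inhibitor. All 4 inhibitor libraries were below the lowest control, inhibitor 4 only just, and the log2 fold change was -0.14 with an interval from -0.24 to -0.03. Slc27a1, a transporter and acyl-CoA synthetase for long-chain fatty acids, ran from 20.8 to 26.9 CPM in control and from 15.6 to 22.7 CPM in inhibitor, with inhibitor 2 lowest and a log2 fold change of -0.28.

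Among genes that handle proteins and RNA, Psmd6, a lid subunit of the proteasome's regulatory particle, measured 84.1, 86.2, 81.0 and 86.0 CPM in control and 92.4, 93.5, 91.0 and 98.5 CPM in inhibitor. The groups did not overlap, the ratios were alike at the 4 numbers (0.12 to 0.19 on the log2 scale), and the fitted value was 0.15 ± 0.05 (SE). Snrpf, the SmF protein of the spliceosome core, ran from 33.1 to 38.3 CPM in control and from 37.96 to 42.1 CPM in inhibitor, with a log2 fold change of 0.16. Tmem251, needed to tag lysosomal enzymes with mannose 6-phosphate, ran from 5.09 to 7.17 CPM in control and from 6.55 to 8.71 CPM in inhibitor, where its log2 ratio was 0.50 at number 1 and 0.09 at number 3. On the lower side, Rnf26, a ubiquitin ligase of the endoplasmic reticulum membrane, measured 27.3, 29.1, 28.6 and 32.8 CPM in control and 20.7, 15.1, 26.2 and 25.6 CPM in inhibitor. No inhibitor library reached the controls, and the log2 fold change of -0.45 had an interval from -0.82 to -0.08. Zdhhc24, a palmitoyltransferase family member, ran from 25.3 to 32.4 CPM in control and from 20.7 to 29.1 CPM in inhibitor, with a log2 fold change of -0.26. Parp9, an ADP-ribosyltransferase family member known from interferon responses, ran from 7.17 to 9.37 CPM and from 6.01 to 8.35 CPM, and its ratios lay between -0.31 and -0.17 at the 4 numbers.

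The next genes were of mixed function, including some of the cytoskeleton or of division. Nes, which encodes the progenitor filament nestin, measured 35.4, 35.3, 33.3 and 74.3 CPM in control and 41.9, 40.7, 39.4 and 74.7 CPM in inhibitor. Library 4 stood far above libraries 1 to 3 in both groups, and the log2 ratio was 0.01 there and 0.21 to 0.24 at the other numbers. Agfg2, an Arf GAP domain protein, had the same form, with 44.0, 48.6, 45.2 and 73.2 CPM in control and 51.5, 52.4, 49.0 and 81.8 CPM in inhibitor. Uaca, an ankyrin and coiled-coil protein, ran from 18.0 to 26.2 CPM in control and from 20.9 to 29.99 CPM in inhibitor. Mnd1, a partner of the meiotic recombination protein HOP2, had 5.13, 4.52, 4.49 and 5.31 CPM in control and 5.43, 6.77, 5.67 and 6.64 CPM in inhibitor, without overlap, and Nme7, of the gamma-tubulin ring complex, ran from 18.5 to 24.7 CPM and from 22.1 to 27.8 CPM. Cdk10, a cyclin M partner kinase, lay on the lower side, from 23.5 to 36.0 CPM in control and from 21.7 to 29.9 CPM in inhibitor. Of the other lower genes, Angptl6, an angiopoietin-like factor, had 13.8, 15.3, 14.1 and 14.03 CPM in control and 9.16, 9.83, 12.9 and 13.0 CPM in inhibitor. Every inhibitor library was below the controls, most so at numbers 1 and 2, and the log2 fold change was -0.36 with an interval from -0.64 to -0.08. Cyp4f13, a fatty acid hydroxylase of the cytochrome P450 family, had 8.26, 9.41, 7.85 and 8.84 CPM in control and 5.56, 6.27, 7.81 and 7.08 CPM in inhibitor, with a log2 fold change of -0.37 (unadjusted p = 0.00691, edgeR), the smallest p of the lower genes. Ctla2b, a relative of cathepsin propeptides, ran from 4.69 to 8.28 CPM in control and from 3.93 to 7.46 CPM in inhibitor.

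**Figure D4:**
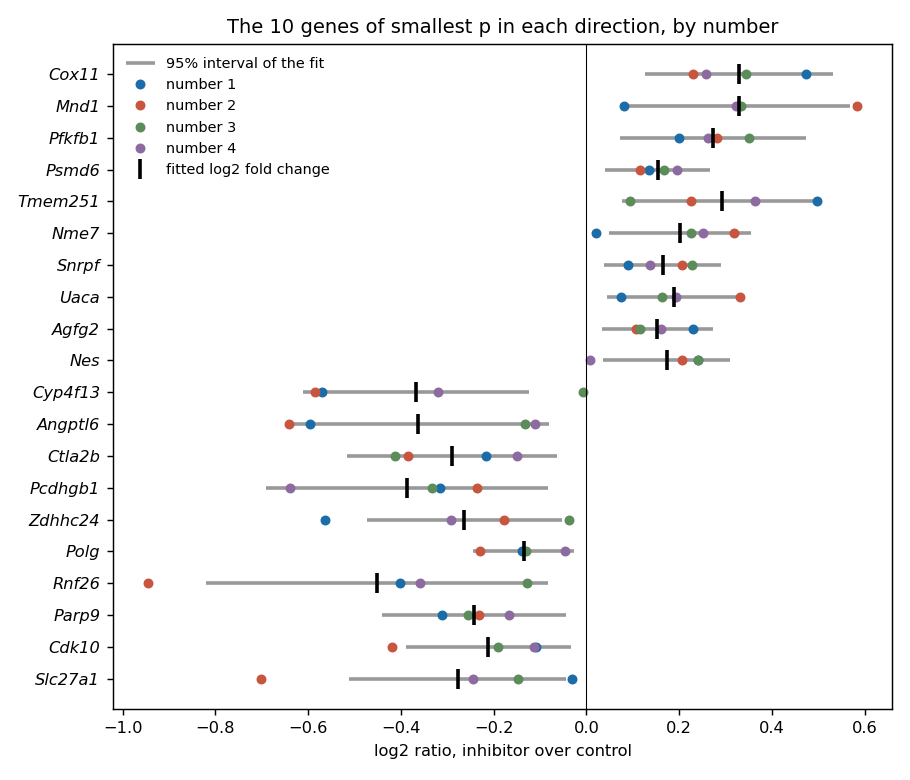
Log2 ratio of inhibitor over control at each of the 4 numbers (coloured points), with the fitted log2 fold change (bar) and its unadjusted 95% interval (grey line), for the 10 genes of smallest p in each direction. All points of a gene lie on 1 side of 0 because the genes were chosen so; Psmd6 and Parp9 are the closest together in their directions, and Rnf26 reaches -0.94 at number 2.

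Gene families, formed from symbols alone, stayed close to 0. Of 55 families, 54 had at least 5 tested members, covering 2527 genes, and 0 of them held a called gene. Their median log2 fold changes ran from -0.08 to 0.05, and 51 of the 54 lay within 0.05 of 0, beside a median of -0.01 over all genes tested. In 20 families at least 1 member had an unadjusted p under 0.05. What differed more was the family median from number to number, which ran from -0.35 to 0.29 at number 2 and from -0.14 to 0.10 at number 4. Over the 54 families, numbers 1 and 2 gave medians of opposite sign for 36, with a rho of -0.66, and numbers 2 and 4 for 40. The family medians at number 2 had a rho of -0.62 with the families' GC content and 0.51 with their length. These are descriptions over families that share the same libraries.

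The families of translation and energy metabolism shared 1 pattern, higher at numbers 1 and 4 and lower at number 2. For the 37 subunits of complex I, which passes electrons from NADH to ubiquinone, the medians at numbers 1 to 4 were 0.21, -0.18, -0.01 and 0.05, and the fitted median was 0.03 with 22 higher and 15 lower. All 37 intervals lay inside 1.5-fold. The 17 genes of ATP synthase had medians of 0.19, -0.17, -0.02 and 0.09, with 14 higher, and the 86 cytosolic ribosomal proteins had 0.17, -0.13, 0.01 and 0.06, with 54 higher. Ribosomal proteins held 13 members with a single sign at the 4 numbers, 11 higher and 2 lower (15.1% together, beside 6.92% of all genes tested, 3.35% higher and 3.57% lower). Rps28 measured 19.1, 21.2, 24.3 and 21.2 CPM in control and 24.8, 25.3, 26.7 and 21.8 CPM in inhibitor, a log2 fold change of 0.20 (edgeR, unadjusted p = 0.0238), and Rpl38 had 0.21 (unadjusted p = 0.0401). Many ribosomal protein genes have processed copies that can share reads. The 78 mitochondrial ribosomal proteins had a fitted median of 0.01, and Mrpl52 and Mrpl47 were the members with an unadjusted p under 0.05, at 0.16 and 0.15. The 37 proteasome subunits, the machinery to which Psmd6 belongs, had medians of 0.14, -0.12, 0.02 and 0.06, with 26 higher and all intervals inside 1.5-fold. The 13 tubulins had the widest spread by number among these, from 0.36 at number 1 to -0.20 at number 2.

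Several other families, of mixed function, had the reverse order. The 357 zinc finger proteins named Zfp, mostly KRAB repressors of mobile elements and other targets, had medians of -0.18, 0.27, -0.01 and -0.07 at numbers 1 to 4, and 164 were higher and 193 lower in the fit. Their median GC content was 43.6%, beside 50.3% for all genes tested and 51.5% for complex I. Zfp839, at 0.45, and Zfp523, at -0.19, were among the 4 members with an unadjusted p under 0.05. The 47 ubiquitin-specific proteases had -0.23, 0.16, -0.01 and -0.12, with 33 lower, and the 20 KLF and SP factors had -0.23, 0.17, 0.01 and -0.01, with 13 lower. Cyclins (14 genes) reached 0.29 at number 2 and -0.11 at number 4, and kinesins (32 genes) 0.20 and -0.10. The part that GC content and length have in these family medians was not tested. With their trends as offsets, the fitted median of complex I was 0.01 and that of the Zfp genes 0.00.

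**Figure D5:**
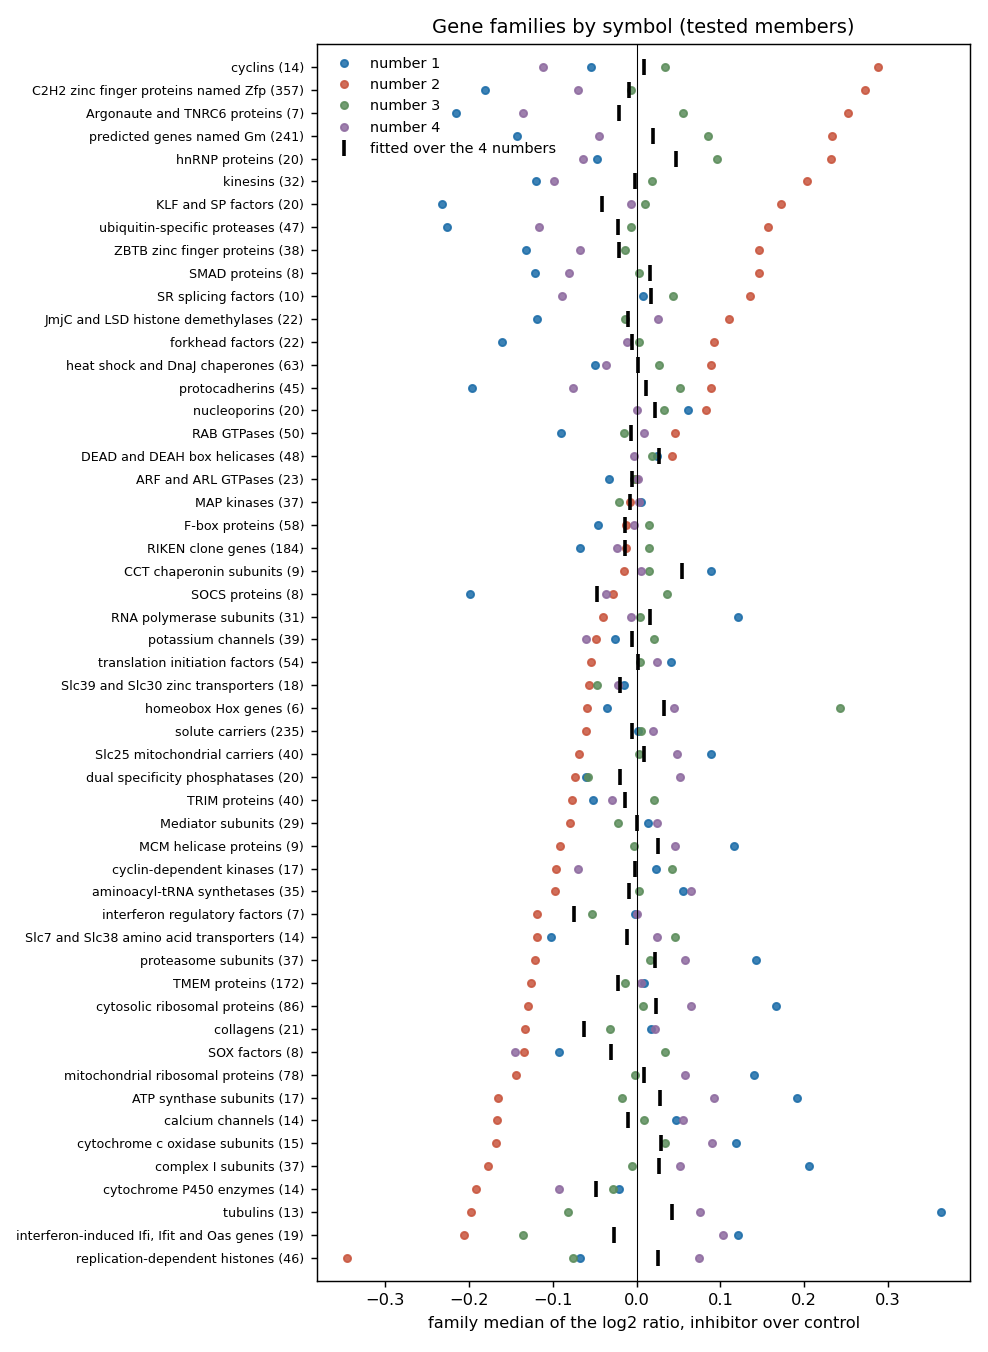
Median log2 ratio of inhibitor over control for 53 of the 54 gene families at each number (coloured points) and the median of the fitted log2 fold changes (bar), ordered by the value at number 2, with the number of tested members in brackets. Bars lie between -0.08 and 0.05, while points of number 2 run from -0.35 for histones to 0.29 for cyclins and those of number 1 mostly in the opposite order.

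Some families leaned one way across many members with small sizes. The 20 hnRNP proteins, which package nascent RNA and steer splicing, included 19 with a fitted value above 0, beside 45.8% of all genes tested, with a median of 0.05 and a highest value of 0.14. None had a single sign at the 4 numbers, and the family medians were -0.05, 0.23, 0.10 and -0.06. Hnrnpm showed this, with 272, 216, 233 and 209 CPM in control and 271, 263, 270 and 206 CPM in inhibitor. Of the 9 subunits of CCT, the chaperonin that folds actin and tubulin, 8 were above 0, with a median of 0.05. Cct8 did not overlap between groups, with 723, 732, 718 and 722 CPM in control and 769, 765, 778 and 742 CPM in inhibitor, and its log2 fold change was 0.08 with an interval from -0.02 to 0.18. The 48 DEAD and DEAH box helicases, which remodel RNA, had 34 above 0 and a median of 0.03, and Ddx23, of the spliceosome, ran from 235 to 250 CPM in control and from 250 to 256 CPM in inhibitor. Nucleoporins were the only family of the 54 whose median was above 0 at all 4 numbers, at 0.06, 0.08, 0.03 and 0.00, and of their 20 members Nup35 had the smallest p, with 20.1 to 23.6 CPM in control and 24.1 to 26.3 CPM in inhibitor.

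Medians below 0 at all 4 numbers were seen for the zinc transporters of the Slc39 and Slc30 families (18 genes, -0.01, -0.06, -0.05 and -0.02) and for the cytochrome P450 enzymes (14 genes, -0.02, -0.19, -0.03 and -0.09). The median over all genes tested was itself below 0 at all 4 numbers, at -0.023, -0.017, -0.0001 and -0.0005. Slc39a14, an importer of zinc, iron and manganese, measured 44.6, 49.1, 48.5 and 47.8 CPM in control and 43.6, 44.6, 43.8 and 45.6 CPM in inhibitor, a log2 fold change of -0.10. Of the 14 P450 enzymes 11 were lower, beside 54.2% of all genes tested. An unadjusted p under 0.05 was seen for 2 of them: Cyp4f13, given above, and Cyp27a1, a sterol hydroxylase. Cyp27a1 measured 0.20 to 0.486 CPM in control and 0 to 0.13 CPM in inhibitor, where single counts decide the ratio.

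Of the carriers, Slc25a14, a mitochondrial inner membrane carrier, measured 4.10, 4.23, 4.19 and 2.41 CPM in control and 5.27, 4.99, 4.66 and 4.403 CPM in inhibitor, with no overlap and a log2 fold change of 0.40 (edgeR, unadjusted p = 0.0263). Slc25a29, a mitochondrial carrier of basic amino acids, had -0.25 and was lower at all 4 numbers. The 40 members of the Slc25 family had a median of 0.01, with 22 higher and 18 lower. Med6, of the Mediator complex that links transcription factors to RNA polymerase II, ran from 18.8 to 21.5 CPM in control and from 20.95 to 23.4 CPM in inhibitor, while the 29 Mediator genes had a median of 0.00. Cacna1a, the pore of P/Q-type calcium channels, ran from 6.13 to 6.96 CPM in control and from 3.81 to 6.23 CPM in inhibitor, a log2 fold change of -0.33. Rab36, a small GTPase whose 3' UTR holds an 8mer seed site, had -0.33 as well, and 10.3 CPM in control 3 against 10.9 CPM in inhibitor 3 was its only number above 0. The mimic libraries, compared with the same controls, had -0.33 for Rab36 and -0.16 for Cacna1a. Because the control libraries are shared, a like sign is no separate evidence.

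Protocadherins held 6 of 45 members at an unadjusted p under 0.05 (13.3%, beside 1.24% of all genes tested), in both directions. Pcdhgb1 measured 40.2, 35.2, 33.4 and 32.3 CPM in control and 32.3, 29.8, 26.5 and 20.8 CPM in inhibitor, a log2 fold change of -0.39 with an interval from -0.69 to -0.08. Pcdha8 measured 9.28, 8.18, 7.55 and 12.3 CPM in control and 7.30, 11.9, 11.96 and 20.6 CPM in inhibitor, a log2 fold change of 0.41. These genes are variable first exons spliced to shared constant exons, so that reads of the shared part cannot be assigned to 1 gene, and only 16 of the 45 intervals lay inside 1.5-fold. Replication-dependent histones had 4 of 46 intervals inside 1.5-fold and log2 fold changes from -1.50 to 1.42, and H4c9 ran from 0.725 to 1.29 CPM in control and from 1.33 to 1.70 CPM in inhibitor.

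Genes with and without seed matches to miR-155 had medians close to each other. Sites were the 8mer AGCATTAA and the 7mers AGCATTA and GCATTAA in the longest annotated 3' UTR, and genes were classed by their best site. The 401 tested genes with an 8mer had a median log2 fold change of -0.01, with 169 higher and 232 lower, and the 11118 with none of these sites had -0.01, with 5139 higher and 5979 lower. By number, the 8mer medians were -0.16, 0.19, 0.01 and -0.07, at a median GC content of 46.3% beside 51.1% for genes without a site. In all, 4 of the 401 had an unadjusted p under 0.05 (0.998%, beside 1.24% of all genes tested). At all 4 numbers 14 were higher and 14 lower (6.98% together, beside 6.92% of all genes tested). Of 35 tested genes reported elsewhere as miR-155 targets, 13 were higher and 22 lower, beside 54.2% lower of all genes tested. Their median was -0.03, 0 had an unadjusted p under 0.05, and 34 had an interval inside 1.5-fold. Jarid2, a Polycomb cofactor with an 8mer site, measured 70.7, 52.5, 60.2 and 110 CPM in control and 64.6, 71.1, 65.0 and 115 CPM in inhibitor, where library 4 was the highest of both groups, and its log2 fold change of 0.11 had an interval from -0.08 to 0.31. Fadd and Hbp1, an adaptor of death receptors and an HMG-box repressor, both without a site, had -0.16 and -0.18.

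The SOCS proteins, inhibitors of cytokine receptor signalling, had 7 of 8 members lower with a median of -0.05, beside 54.2% lower of all genes tested. All 8 intervals lay inside 1.5-fold, and Socs5 was at -0.12 with an interval from -0.29 to 0.04. Of 25 genes of microRNA processing and silencing, 20 were lower and 5 higher, with a median of -0.02. Only 1 of the 25 was lower at all 4 numbers, 0 were higher at all 4, and 0 had an unadjusted p under 0.05. The Argonaute and TNRC6 genes had medians of -0.22, 0.25, 0.06 and -0.14 at the 4 numbers. Of 22 tested genes that sense double-stranded RNA or respond to interferon, 13 were higher and 9 lower, 0 had an unadjusted p under 0.05, and the intervals of 11 lay inside 1.5-fold. Usp18, which dampens the interferon receptor, ran from 0.942 to 2.09 CPM in control and from 1.32 to 2.09 CPM in inhibitor, and Isg20, an exonuclease, from 2.61 to 5.57 and from 1.56 to 5.12 CPM.

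The series title names a question about PPARγ, PGC-1α, ERRα and Drp1, encoded by Pparg, Ppargc1a, Esrra and Dnm1l. Pparg, a lipid-sensing nuclear receptor, measured 19.3, 18.7, 20.2 and 24.0 CPM in control and 14.5, 16.1, 18.2 and 23.6 CPM in inhibitor. It was lower at all 4 numbers, as were 2.70% of genes above 10 CPM. The difference was largest at number 1 and 0.02 at number 4 on the log2 scale, and the groups overlapped. The fitted log2 fold change was -0.20 ± 0.09 (SE), with an interval from -0.39 to -0.01 (edgeR, unadjusted p = 0.0414, adjusted p = 1.00). Without the block the unadjusted p was 0.299 (edgeR). Esrra, a receptor that drives mitochondrial genes, measured 89.5, 121, 109 and 69.6 CPM in control and 99.6, 94.0, 99.8 and 76.1 CPM in inhibitor, and its interval ran from -0.24 to 0.14. Dnm1l, the fission GTPase, measured 87.1, 47.0, 68.1 and 88.8 CPM in control and 64.3, 70.3, 65.9 and 79.0 CPM in inhibitor, where control 2 was the lowest of the 8, and its interval ran from -0.35 to 0.28. Leaving out single libraries turned the sign of Esrra and Dnm1l. Ppargc1a, the coactivator, was read 5 times, all in control 2, and was not tested.

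Markers of other cell types were read at low levels. Pdgfrb, a receptor of mesenchymal cells, ran from 9.67 to 15.01 CPM in control and from 9.21 to 14.2 CPM in inhibitor, with an interval of the log2 fold change from -0.63 to 0.06. In bulk RNA of this kind, fewer cells of a type and less RNA per cell cannot be told apart.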

How the data were processed

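Per the labels' protocols, total RNA went into VAHTS Illumina libraries. The authors deposited 2 tables of 15767 genes, one of whole-number counts and one of TPM values. The submitters' processing notes name the build GRCm39 and, in no stated role, edgeR, StringTie, featureCounts, STAR and fastp. The sources used here do not give versions, annotation release, strandedness or gene filters.

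In the files, 15499 genes carried a symbol, a table of names gave 260 more, and 8 stayed without. Counts were scaled by TMM, filtered with filterByExpr (13014 genes left) and fitted in edgeR 4.0.16 (R 4.3.3) with robust quasi-likelihood over all 12 libraries, with group and replicate number as terms. Tests were two-sided and adjusted by Benjamini-Hochberg, with calls at 0.05. Wald 95% intervals used the posterior dispersion and its t quantile. Ratios at a number used log2 CPM with a prior of 0.5 counts. limma 3.58.1 used the deposited TPM plus 1 on a log2 scale, and DESeq2 1.42.0 the deposited counts. GC content, exon length, overlaps and 3' UTRs came from GRCm38 with GENCODE annotation, another build, matched by identifier for 15738 genes. The fit was also run on simulated counts, which held no GC or length trend particular to a single library. That run cannot show how the intervals behave with such trends.

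Named genes were any called, the 10 of smallest p per direction under the limits stated with them, the 4 genes of the title, up to 4 members of smallest p from each family or list described, the 5 widest intervals, and DESeq2 or limma calls, of which Hsf5 alone is named. Some genes and 1 family under this rule are left out. The members, lists and rules were chosen with earlier results of these data known.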

Additional observations from a re-analysis of the deposited data

Results flagged for a closer look

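Among the 56 groups of 4 libraries behind the first 28 genes named by p, by interval or by the series title, 6 held a library whose gap to its nearest neighbour was a larger share of the group's range than Dixon's 95% limit for 4 samples, which chance passes in about 1 of 20 groups. Nes stood high in library 4 of both groups, at 74.3 CPM in control against 33.3 to 35.4 CPM in the others and at 74.7 CPM in inhibitor against 39.4 to 41.9 CPM. Agfg2 did so too, at 73.2 CPM in control 4 against 44.0 to 48.6 CPM and at 81.8 CPM in inhibitor 4 against 49.0 to 52.4 CPM. Pfkfb1 was low in control 4, at 4.77 CPM against 5.453 to 5.545 CPM. Gemin4 was high in control 2 among the controls, at 62.6 CPM against 0 to 0.425 CPM.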

How the results depend on the processing

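Of 24 other fits across all genes, 22 called 0 genes. The exceptions were DESeq2 on all genes, with 162, and the fit without control replicate 4, with 1 (leaving out single libraries or numbers gave 0 to 1). Genes at an unadjusted p under 0.05, 161 as reported, numbered 86 with the 8 libraries alone, 393 in DESeq2, 338 with GC and length offsets, and 107 to 1335 when a library or number was left out. The share of genes above 10 CPM with a single sign was 9.22% with the GC and length trend taken off and 10.6% to 28.5% over the 3 numbers left when 1 was dropped, where fewer numbers need to match. The share with an interval inside 1.5-fold stayed at 97.4% to 99.2% with libraries or numbers left out.

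Without the replicate block 67 genes had an unadjusted p under 0.05, 55 of them among the 161, and 0 were called. Same-numbered inhibitor and control libraries deviated together by correlations of 0.135, -0.213, 0.0357 and 0.881, so the values bear out the pairing by number only at number 4. Inhibitor 1 correlated best with control 2 (0.676), inhibitor 2 with control 3 (0.598) and inhibitor 3 with control 2 (0.436). Only inhibitor 4 correlated best with its own number.

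Of 1463 values of 61 named genes under these settings, 39 had the opposite sign, from 6 genes. Leaving out libraries or numbers gave log2 fold changes of -0.23 to 0.10 for Dnm1l, -0.12 to 0.053 for Esrra, -3.13 to 6.90 for Gemin4, -2.16 to 2.17 for Raver1, -0.70 to 0.62 for Rps18-ps6 and -0.68 to 0.31 for Guca1a. Gemin4 was at -0.29 in DESeq2. Raver1 was at -0.012 without the block and -0.32 with voom. Guca1a was at -0.047 without the block, -0.0475 with 8 libraries, -0.047 and -0.048 with limma on TPM plus 1 and plus 0.1, -0.17 with voom and -0.017 with the offsets. The causes were not tested.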
